A study of Homo sapiens with 4 samples.

Results

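The JmjC histone lysine demethylases are enzymes that remove methyl groups from lysines of histone H3, and 10 genes of this class were examined. These were KDM3A, KDM3B and JMJD1C of the KDM3 subfamily, KDM4A, KDM4B and KDM4C of the KDM4 subfamily, KDM5A and KDM5B of the KDM5 subfamily, and KDM6A and KDM6B of the KDM6 subfamily. Probes were taken as belonging to a gene when the array's design named them by the current or an older symbol (JMJD1A for KDM3A, UTX for KDM6A and so on) or by a RefSeq transcript of the gene. All 10 genes had at least 1 probe, 18 probes in all out of 50238 on the array, and 9 of the 10 genes were among the 17649 genes or transcripts bright enough to be tested. The data come from A549, a human lung adenocarcinoma cell line, kept in medium with 2% serum from 12 h before treatment. The 2 control samples were untreated (0 µM embelin, 4 h), and the other 2 samples received 15 µM embelin, a plant benzoquinone, for 4 h. RNA of each sample was labelled with Cy3 and hybridized to 1 whole-genome oligonucleotide array, and the comparison asks which transcripts differ early after embelin. The labels do not say whether replicates came from separate cultures, so p-values measure only the spread between these samples, which may be technical.

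Enzymes of this class carry a JmjC domain that binds iron and uses oxygen and 2-oxoglutarate to oxidize the methyl group. The KDM3 enzymes act on mono- and dimethylated H3K9 (lysine 9 of histone H3), a mark of silent chromatin, and the KDM4 enzymes act on trimethylated H3K9 and on H3K36. The KDM5 enzymes remove methyl groups from H3K4, a mark of active promoters, and the KDM6 enzymes remove them from H3K27, the mark placed by Polycomb. Several genes of the class, KDM3A and KDM4B among them, are known to be induced in cells short of oxygen. The arrays measure transcripts, and neither enzyme activity nor histone methylation was part of these data.

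With embelin the KDM3A transcript rose 5.27-fold, and KDM3A was the only 1 of the 9 genes tested that was called after adjustment for all genes. KDM4B was 2.21-fold and KDM4C 1.90-fold higher without reaching that threshold, JMJD1C was 1.59-fold higher, and KDM6A and KDM5B lay within 1.2-fold of the controls on average. KDM3B, KDM4A and KDM5A were lower on average, by 1.43-fold, 1.31-fold and 1.23-fold, and none of these 3 passed the test. The call rests on limma's moderated test with a Benjamini-Hochberg adjusted p under 0.05 over the 17649 genes. By this rule 1 of 9 genes was higher, against 1.25% of all genes tested, and 0 of 9 were lower, against 0.561% of all genes. At an unadjusted p under 0.05 limma again found 0 of the 9 lower and 3 higher (KDM3A, KDM4B and KDM4C), against 11.1% lower and 8.36% higher among all genes. By the study's own kind of threshold, at least 2-fold with an unadjusted p under 0.05, KDM3A and KDM4B were higher, 2 of 9 against 4.26% of all genes, and 0 of 9 were lower, against 3.99%. Run on these values, the methods' t-test also placed 2 of the 9 past that threshold, both higher. Of all 17649 genes it placed 1003 there, 529 higher and 474 lower. After adjustment it called 0 of all genes, so its 0 of the 9 says nothing particular to them. The demethylase genes were chosen with earlier results of these data known, so the counts in this paragraph are not a test.

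**Figure D1:**
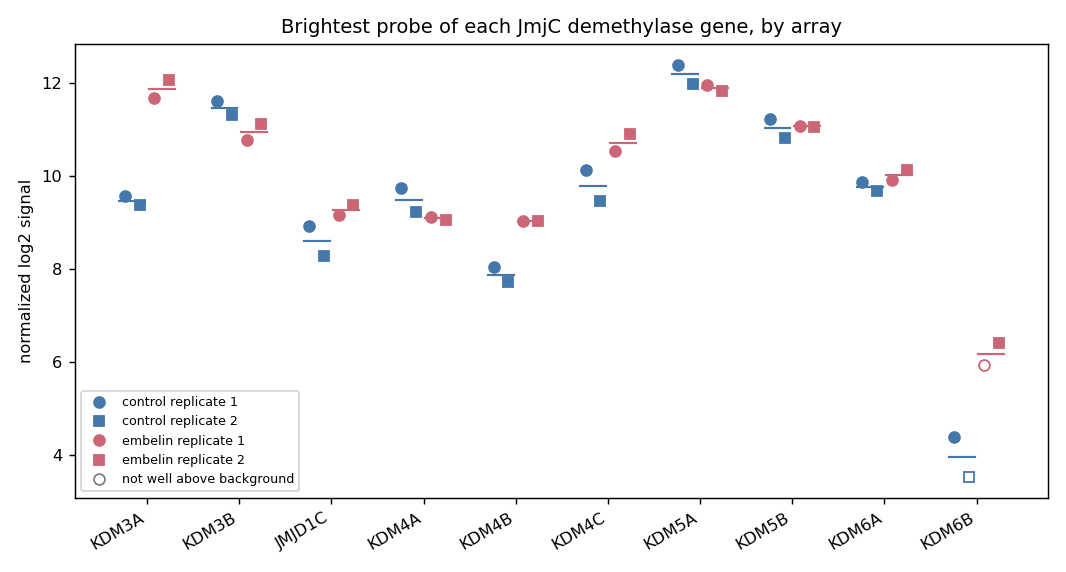
Normalized log2 signal of the brightest probe of each gene (vertical axis) on the 2 control arrays (blue) and the 2 embelin arrays (red), with circles for replicate 1, squares for replicate 2 and lines for the group means. Open symbols mark arrays where the probe was not well above background, which occurred only for KDM6B, and the KDM3A embelin arrays at 11.68 and 12.05 lie well apart from its controls at 9.56 and 9.37.

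All 4 arrays were on 1 slide scanned on 1 day, and their deposited names, though not the labels, place the controls at positions 4 and 1 and the embelin arrays at positions 2 and 3. The share of probes well above background was 66.7% (replicate 1) and 50.3% (replicate 2) in the controls and 51.2% (replicate 1) and 66.4% (replicate 2) with embelin, so that 1 array of each group read fewer probes above background. The 8 A549 markers examined (KRT7, KRT8, KRT18, KRT19, AKR1B10, AKR1C1, ALDH1A1 and NQO1) were well above background on all 4 arrays. Of the leukocyte and endothelial markers given here only CD14 was, at a log2 fold change of -0.60 (limma adjusted p = 0.232), CD3E was kept but not well above background on every array, and PTPRC, PECAM1, CDH5 and VWF did not pass the filter on dim probes. The part of array position in any change was not tested. The 9 genes tested were well above background on all 4 arrays at the probes that stand for them.

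KDM3A had 3 probes, printed here by their first 30 bases because they give separate readings of the transcript that changed most among the 9 tested.
KDM3A brightest probe: gtgaaagatgcagttgctatgctgaaagcc
KDM3A further probe: ccaacttgtgagggtactctgtctaatgta
KDM3A dimmest probe: tcataccaatcacgaagataaattacaggg
No 2 probes of the same gene in the set shared a run of more than 8 bases and no 2 probes of different genes in the set one of more than 9. No other probe on the array shared a run of 20 bases with any of the 18. At the brightest KDM3A probe the normalized log2 signal was 9.56 and 9.37 in control replicates 1 and 2, and 11.68 and 12.05 in embelin replicates 1 and 2, the order kept for all genes that follow. Both embelin values lay more than 2 log2 units above both controls, with means of 9.46 ± 0.13 (SD, n = 2) without and 11.86 ± 0.26 (SD, n = 2) with embelin. The log2 fold change was 2.40 (standard error, SE, 0.21, limma adjusted p = 0.0355, 95% interval 1.81 to 2.98), larger than that of 98.8% of all genes tested. The further probe read 8.42 and 7.71 in the controls and 10.47 and 10.85 with embelin, a log2 fold change of 2.60. The dimmest probe read 7.38 and 7.30 in the controls and 9.45 and 9.86 with embelin, a log2 fold change of 2.31. All 3 probes thus read a rise of similar size, with no overlap between the groups. When each probe on the array was tested on its own, limma's adjusted p was 0.0414 for the brightest, 0.0581 for the further and 0.0427 for the dimmest probe. With any 1 array left out the log2 fold change of KDM3A stayed between 2.21 and 2.58 while limma's adjusted p rose to between 0.0692 and 0.172, so the adjusted call was lost each time, as it was with the replicate number as a block (adjusted p = 0.0843), with a block for array background (0.182), with no filter on dim probes (0.375) and in the methods' t-test (0.204).

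KDM3B and JMJD1C, the relatives of KDM3A, had smaller changes that did not pass the test. KDM3B, measured by a single probe, was at 11.61 and 11.31 in the controls and at 10.76 and 11.11 with embelin. Both embelin values were below both controls, with a log2 fold change of -0.52 (SE 0.22, limma adjusted p = 0.314, 95% interval -1.13 to 0.09). JMJD1C, a KDM3 relative known also as a nuclear receptor partner, was at 8.92 and 8.26 in the controls and at 9.15 and 9.38 with embelin. Its log2 fold change was 0.67 (SE 0.29, limma adjusted p = 0.313), with the control arrays differing from each other by about as much. The other 2 kept probes of JMJD1C had log2 fold changes of 0.73 and 0.87, and at both of them control replicate 2 was not well above background, so that they passed the filter through the embelin arrays and are no further support for the sign.

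None of the KDM4 genes passed the adjusted threshold, and KDM4B came nearest to it. The probes of KDM4B are shown by their first 30 bases because it was, after KDM3A, the gene with the largest change among the 9 tested.
KDM4B brighter probe: tgccccagggagggatggaggagataattt
KDM4B dimmer probe: tagagaggactaaggaaaacagagagagtg
At the brighter probe KDM4B was at 8.04 and 7.71 in the controls and at 9.02 on both embelin arrays. Its log2 fold change was 1.15 (SE 0.19, limma adjusted p = 0.0799, 95% interval 0.62 to 1.67). The dimmer probe read 7.73 and 7.99 in the controls and 8.65 and 9.20 with embelin, a log2 fold change of 1.06. Neither probe had overlapping groups. KDM4B passed the adjusted threshold when only probes well above background on all 4 arrays were tested (limma adjusted p = 0.0423), with limma's trend and robust options (adjusted p = 0.0456) and with normexp background correction (adjusted p = 0.0469), where its log2 fold change was 0.99. KDM4B was not called under the other 12 alternatives. Among these were no filter on dim probes (limma adjusted p = 0.480), the methods' t-test (adjusted p = 0.253) and a block for array background (limma adjusted p = 0.230). With each probe tested on its own, limma's adjusted p was 0.0961 for the brighter and 0.161 for the dimmer probe. Without control replicate 2 the log2 fold change of KDM4B was 0.98, just under 2-fold.

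KDM4C was at 10.13 and 9.45 in the controls and at 10.53 and 10.89 with embelin. Its log2 fold change of 0.92 (SE 0.31, limma adjusted p = 0.227) stood beside control arrays that differed by more than the embelin arrays did. The other probe of KDM4C did not pass the filter and was well above background only on the arrays of control replicate 1, at 4.54, and of embelin replicate 2, at 5.50. KDM4A was at 9.74 and 9.21 in the controls and at 9.11 and 9.05 with embelin. The log2 fold change of KDM4A was -0.39 (SE 0.24, limma adjusted p = 0.447, 95% interval -1.05 to 0.26).

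**Figure D2:**
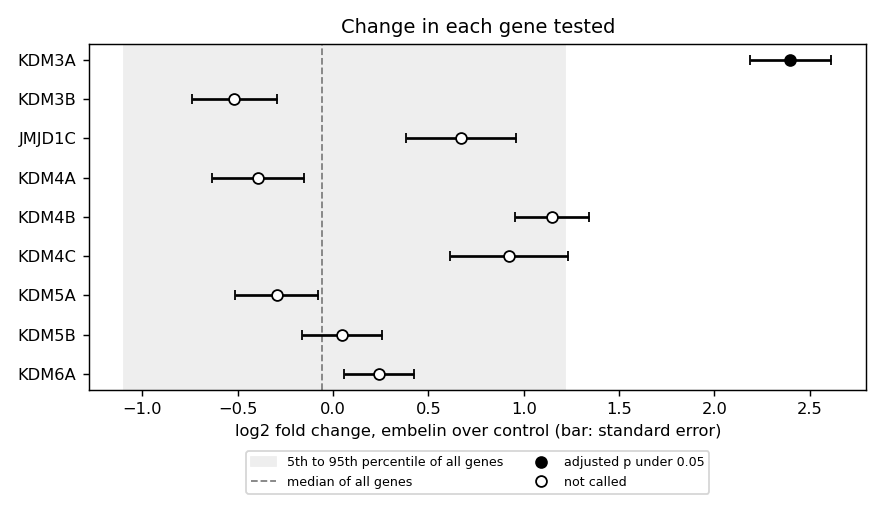
Log2 fold change of embelin over control (horizontal axis) for the 9 genes tested, with bars for the SE from limma and filled points for an adjusted p under 0.05. The grey band runs from -1.09 to 1.22, the 5th to the 95th percentile of all 17649 genes, and only KDM3A, at 2.40, lies outside it.

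KDM5A and KDM5B, which act on H3K4, had, with KDM6A, the changes nearest to 0 among the 9 genes. KDM5A was at 12.39 and 11.97 in the controls and at 11.95 and 11.82 with embelin. Its log2 fold change was -0.30 (SE 0.22, limma adjusted p = 0.523, 95% interval -0.89 to 0.30), and its other probe gave -0.36. KDM5B was at 11.21 and 10.82 in the controls and at 11.07 and 11.06 with embelin, so that both embelin values fell between the controls. Its log2 fold change was 0.05 (SE 0.21, limma adjusted p = 0.934, 95% interval -0.52 to 0.62), and -0.15 without control replicate 2. KDM5B was the only gene of the 9 whose groups overlapped. Of the other 8, 5 were higher and 3 lower on both embelin arrays, against 21.1% and 30.7% of the 17298 genes read on each of the arrays, and 51.8% of those had groups that did not overlap in either direction.

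KDM6A, a subunit of H3K4 methyltransferase complexes as well as an H3K27 demethylase, was at 9.85 and 9.68 in the controls and at 9.90 and 10.11 with embelin. Its log2 fold change was 0.24 (SE 0.18, limma adjusted p = 0.540, 95% interval -0.26 to 0.74). KDM6B, known from earlier work as an inducible H3K27 demethylase, was read by the single probe whose first 30 bases follow, shown because this dim probe alone carries the gene.
KDM6B probe: tgtacatgtctctttattcacttggttatg
It read 4.38 and 3.52 in the controls and 5.93 and 6.41 with embelin. Only control replicate 1 and embelin replicate 2, the arrays with more probes above background, were well above background, and these differed by 2.03 in log2. The probe was therefore not kept by the filter, and KDM6B is not among the 9 genes counted. With no filter on dim probes its log2 fold change was 2.22 (SE 0.43), past 2-fold with an unadjusted p of 0.0107 from limma, and its adjusted p was 0.455 over 30969 genes or transcripts, with 0 genes called.

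**Figure D3:**
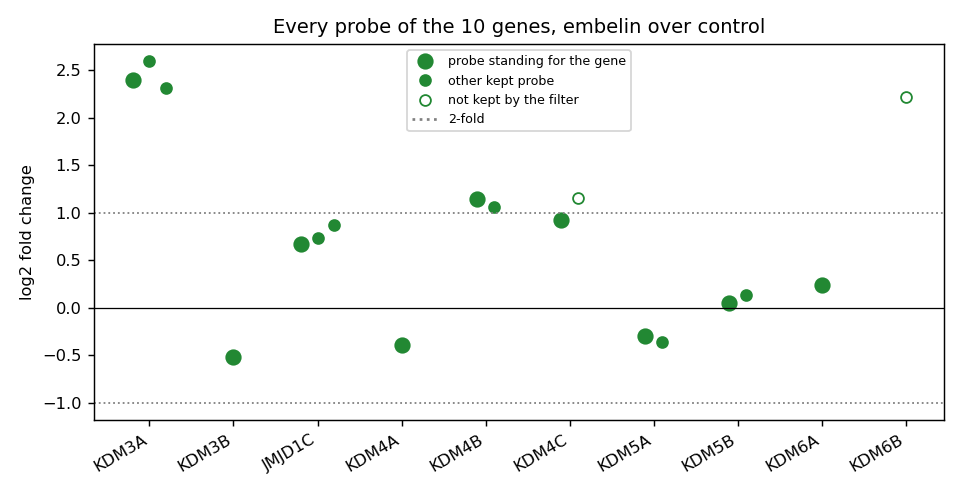
Log2 fold change of embelin over control (vertical axis) at each of the 18 probes of the 10 genes, with large filled points for the probe that stands for a gene, small filled points for the other kept probes and open points for the 2 probes not kept. Kept probes of the same gene lie on the same side of 0 in KDM3A, KDM4B, KDM5A and, close to 0, KDM5B. Of the 3 kept JMJD1C probes, 2 had a control array not well above background.

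In the 4 genes with several kept probes other than JMJD1C, the probes of a gene had the same sign. The 3 KDM3A probes ranged from 2.31 to 2.60, the 2 KDM4B probes from 1.06 to 1.15, the 2 KDM5A probes from -0.36 to -0.30 and the 2 KDM5B probes from 0.05 to 0.14 in log2 fold change. At both KDM5B probes the embelin values fell between the controls, so the shared sign there tells little. Signals of different probes depend on the probe as well as on the transcript, so the levels of different genes are not compared here.

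Changes of related genes were compared within each array, as the log2 difference between a pair of genes of the same subfamily, in 7 pairs. With 2 arrays in each group the smallest p of the exact permutation test used (two-sided) is 0.333, which after adjustment over the 7 pairs is 0.389, so no pair could pass the threshold. KDM3A minus KDM3B went from between -2.05 and -1.94 on the control arrays to between 0.91 and 0.94 with embelin, a shift far larger than either of these ranges, of 2.92 (exact permutation p = 0.333). KDM3A minus JMJD1C shifted by 1.73 and KDM3B minus JMJD1C by -1.19. In the KDM4 genes, KDM4A minus KDM4B went from at most 1.70 in the controls to at most 0.09 with embelin, a shift of -1.54. KDM4A minus KDM4C shifted by -1.32. KDM4B minus KDM4C shifted by 0.22 with overlapping groups (exact permutation p = 0.667), which does not show that these genes changed alike. KDM5A minus KDM5B shifted by -0.34, from between 1.15 and 1.17 to between 0.76 and 0.88. The pairs share genes and are not separate observations. The sign of each of the 7 shifts was the same under every other setting run for them. Where the groups of a pair did not overlap, leaving out 1 array could not have changed that sign.

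**Figure D4:**
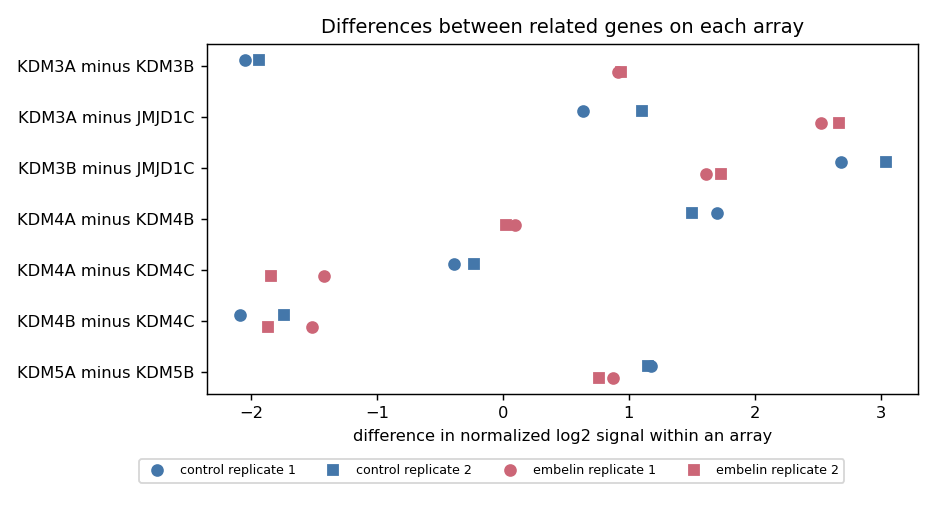
Difference in normalized log2 signal between 2 genes of a subfamily on each array (horizontal axis), for 7 pairs, with control arrays in blue and embelin arrays in red. The KDM3A minus KDM3B difference moved from about -2 on the controls to 0.91 and 0.94 with embelin, while the points of KDM4B minus KDM4C overlap.

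Each embelin array was also set against the control array with a like share of probes above background. KDM3A and KDM4B were higher in both pairs, as must follow where the groups do not overlap. In the pair with more probes above background (embelin replicate 2 against control replicate 1) KDM3A differed by 2.49 and KDM4B by 0.98 in log2. In the pair with fewer (embelin replicate 1 against control replicate 2) they differed by 2.31 and 1.31. KDM4C was at 0.76 and 1.08, JMJD1C at 0.45 and 0.89, and KDM3B at -0.49 and -0.54, in the same order. KDM4A (-0.69 and -0.10) and KDM5A (-0.57 and -0.02) were lower mainly in the pair with more probes above background, and KDM5B changed sign (-0.16 and 0.25).

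The stretch of 250 bases before the transcription start is shown for the 3 genes with the largest changes among those tested, since these were the genes with an unadjusted p under 0.05. The sequences are from RefSeq (GRCh38.p14), read on the strand of the gene, and the capitals mark ACGTG or GCGTG, the core letters of the hypoxia response element, on either strand.
KDM3A, chr2:86441121-86441370, + strand: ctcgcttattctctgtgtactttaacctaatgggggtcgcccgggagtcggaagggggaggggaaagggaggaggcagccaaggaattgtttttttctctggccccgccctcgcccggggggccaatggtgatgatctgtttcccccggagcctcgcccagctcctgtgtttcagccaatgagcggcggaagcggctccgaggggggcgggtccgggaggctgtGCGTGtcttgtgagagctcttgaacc
KDM4B, chr19:4968863-4969112, + strand: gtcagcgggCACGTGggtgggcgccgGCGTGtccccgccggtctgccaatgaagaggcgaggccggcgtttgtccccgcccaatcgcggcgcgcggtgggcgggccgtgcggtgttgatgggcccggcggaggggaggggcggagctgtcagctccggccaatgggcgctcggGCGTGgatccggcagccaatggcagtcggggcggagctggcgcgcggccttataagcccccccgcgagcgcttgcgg
KDM4C, chr9:6757723-6757972, + strand: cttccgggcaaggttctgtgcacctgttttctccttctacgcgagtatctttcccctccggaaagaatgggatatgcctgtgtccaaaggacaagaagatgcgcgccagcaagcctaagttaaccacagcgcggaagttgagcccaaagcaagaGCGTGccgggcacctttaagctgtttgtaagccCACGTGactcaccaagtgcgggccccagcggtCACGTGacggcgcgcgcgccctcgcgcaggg
The promoter table held all 10 genes, in 14 windows since JMJD1C has 3 start sites in it and KDM3A and KDM6B 2 each. The KDM3A window printed holds 1 GCGTG, 26 bases before the start, and no ACGTG. The KDM4B window holds 2 GCGTG and 2 ACGTG matches, the latter being both strands of 1 CACGTG, the E-box letters that overlap with ACGTG. The KDM4C window holds 1 GCGTG and 4 ACGTG matches, the latter from 2 CACGTG. Of the genes whose windows are not printed, KDM6A has 2 GCGTG and 3 ACGTG matches and JMJD1C 2 ACGTG matches. KDM4A, KDM5A, KDM5B and KDM6B have 1 GCGTG each. Whether the number of matches goes with the change was not tested. Among all 14 windows 10 hold either core, against 43.2% of the 35116 windows in the table. The 2 KDM3A windows overlap and hold the same GCGTG, so they are not separate matches. The windows with a core belong to 9 of the 10 genes (all but KDM3B), and a share by gene was not computed. The windows of these genes are mostly rich in G and C (44.0% to 76.4%, above the median window's 58.0% in 12 of 14), and the share over all windows was not matched for base composition. A match is a description of letters and not a site bound in these cells.

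Among 10 genes known to be induced by low oxygen, 9 rose after adjustment and 0 fell, against 1.25% and 0.561% of all genes. The 9 were NDRG1, ANKRD37, CA9, PDK1, EGLN3, ADM, PFKFB3, SLC2A1 and BNIP3. This list was chosen with earlier results of these data known, so its counts are not a test. Log2 fold changes ran from 1.43 to 4.69 over the 10, with a median of 2.68 against -0.06 over all genes. The lowest, 1.43, was that of P4HA1, which was not called (limma adjusted p = 0.115) and had a value on only 1 embelin array, and the next was BNIP3 at 1.80. KDM3A was at 2.40, KDM4B at 1.15 and KDM4C at 0.92. With any 1 array left out limma called 0 of all genes after adjustment, these 9 and the demethylases included. The part of this response in the change of the demethylases was not tested.

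The remaining JmjC genes mostly did not pass the test, which does not show that they stayed unchanged. Their log2 fold changes ran from -0.87 to 2.96. Of 19 listed, 18 were tested, 1 was called higher and 0 lower after adjustment, and the median log2 fold change was 0.07. The call was KDM7A, a demethylase of H3K9 and H3K27, which went from 8.61 and 8.70 in the controls to 11.60 and 11.63 with embelin, a log2 fold change of 2.96 (SE 0.16, limma adjusted p = 0.0204). At an unadjusted p under 0.05 limma placed 2 of the 18 higher and 1 lower, where 8.36% and 11.1% of all genes were. Over the 10-gene set the median of the 9 tested was 0.24. TET2, which like the JmjC enzymes uses oxygen and 2-oxoglutarate but oxidizes methylcytosine in DNA, was the only TET gene of the 3 matched on the array. It went from 4.64 and 3.81, the latter not well above background, to 6.56 and 6.59 (not called), and since it passed the filter through the embelin arrays no fold change is given. Of the flavin-dependent demethylases, KDM1A had a log2 fold change of -0.40 (adjusted p = 0.667) and KDM1B was not kept by the filter.

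The methyltransferases that place the marks these demethylases remove had mostly values below 0, where the median of all genes was -0.06, and after adjustment limma called none of those tested. All 6 H3K9 methyltransferases had log2 fold changes below 0 (-0.88 to -0.17, median -0.54), and 3 of them passed an unadjusted p under 0.05 in limma, against 11.1% of all genes that were lower by this rule. All 5 H3K36 methyltransferases were also below 0 (-1.16 to -0.28, median -0.59), and 2 passed the unadjusted threshold, against the same 11.1%. With groups this small nothing particular to them is read from these counts. ASH1L, which methylates H3K36, was the only 1 of these 5 past 2-fold, at 9.08 and 8.95 in the controls and 8.14 and 7.56 with embelin (limma adjusted p = 0.120). Among the 9 H3K4 methyltransferases and core subunits tested the median was -0.09, and SETD1B was at 6.91 and 6.81 in the controls and at 4.90, not well above background, and 6.17 with embelin (not called). The 4 genes of the H3K27 methyltransferase ranged from -0.51 to 0.55, and 0 passed the unadjusted threshold.

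**Figure D5:**
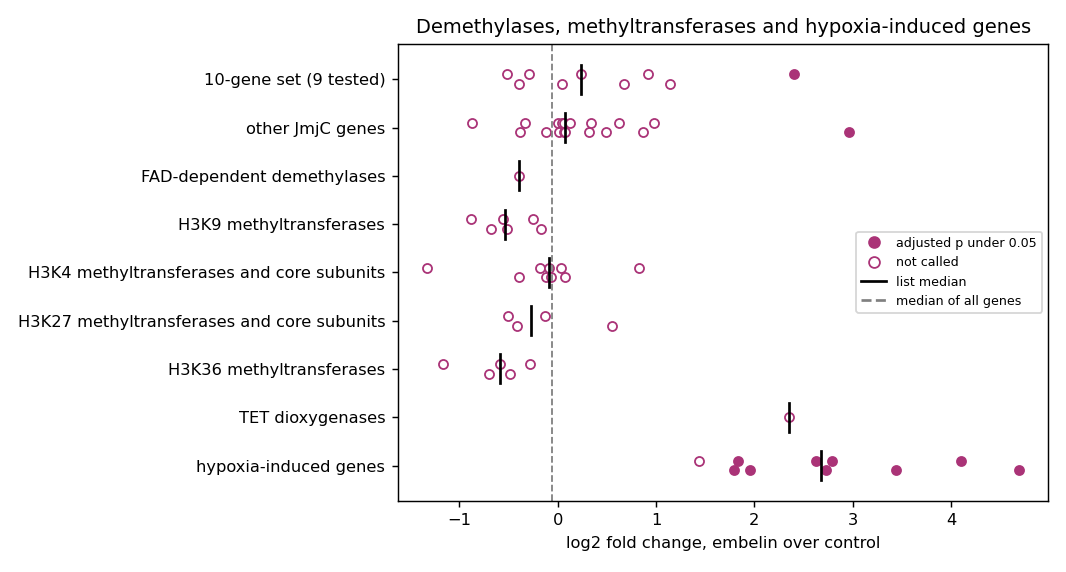
Log2 fold change of embelin over control (horizontal axis) for each gene tested in 9 gene groups, with filled points for genes at an adjusted p under 0.05, black bars for group medians and a dashed line for the median of all genes. KDM3A is the only filled point of the 10-gene set and KDM7A the only one of the other JmjC genes, while the hypoxia-induced genes lie between 1.43 (P4HA1, with 1 embelin array) and 4.69. TET2, the only point of its group, passed the filter through the embelin arrays. SETD1B, an H3K4 methyltransferase, was not well above background on 1 embelin array. The size of the change is not read at these points.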

How the data were processed

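A549 samples, 2 control and 2 embelin, were measured on 1-colour (Cy3) custom Agilent arrays. The authors deposited intensities written by Feature Extraction 10.7.3.1 (per the file headers), which subtracted background, detrended each array and set surrogates for spots not above background, with no normalization between arrays. Their table of probe values holds the same intensities averaged over spots. Here intensities were scaled to an equal 75th percentile, as the methods name, given a floor of 1 and log2-transformed. Outlier spots were left out and spots of a probe averaged. Of 50238 probes, 26146 well above background on both arrays of a group were kept, and the brightest kept probe stood for a gene. Names came from RefSeq accessions for 28595 probes, 2341 shared a name with such a probe, 2 (KDM5A) were matched by alias and 19300 kept the file's name. limma 3.58.1 in R 4.3.3 (lmFit, eBayes, no covariate, checked on simulated data) compared the groups over 17649 genes with Benjamini-Hochberg adjustment. The number of arrays limits the precision, with a median pooled SD of 0.21 in log2. All 10 genes were named, and of the other lists each gene called or, where none was, up to 3 past 2-fold with an unadjusted p under 0.05. The genes and lists were chosen with earlier results of these data known. The alternatives were normexp (offset 50), quantile normalization, the deposited table, no filter or a filter on all 4 arrays, the methods' t-test, trend and robust eBayes, the replicate block, other ways to combine probes, each array left out and, added after the data were seen, a block for array background.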

Additional observations from a re-analysis of the deposited data

How the results depend on the processing

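KDM3A was higher under all 15 alternatives, with a log2 fold change from 2.21 to 2.58. Several of these settings change only the test or the genes tested beside it and return the same fold change. Leaving out 1 array cannot turn the sign of a gene whose groups do not overlap, and only the groups of KDM5B overlapped. The shared sign is therefore partly fixed in advance. Of the 9 genes, KDM5B alone changed sign, from 0.05 to -0.15 without control replicate 2, and lay between -0.15 and 0.24 with each array left out. After adjustment 1 of the 9 genes and 320 of all genes were called in the reported analysis. The counts were 2 and 699 with normexp, 2 and 764 with a filter on all 4 arrays and 2 and 1061 with the trend and robust options. In each of these 3 settings the calls were KDM3A and KDM4B. They were 1 and 159 with the deposited table. They were 0 and 0 with no filter on dim probes, with the methods' t-test, with the block for array background and with each array left out (0 to 0 in both), although limma placed 1500 genes (no filter), 1450 (array background) and 1348 to 2158 (arrays left out) past 2-fold with an unadjusted p under 0.05, and the t-test 1003. With each probe tested on its own, 2 of the 16 kept probes of the set were called, both of KDM3A, against 282 of all 26145 probes. Of the 9 genes, 2 were past 2-fold and an unadjusted p under 0.05. This was 1 with normexp and 3 of 10 with no filter (KDM6B included). With each probe on its own it was 5 of 16 probes, against 2185 of all 26145 probes. These 5 were probes of KDM3A and KDM4B, so they are the same 2 genes again. All genes past that rule were 1457, and 891 with normexp. Leaving out 1 array also moved genes across 2-fold. KDM4B had a log2 fold change of 0.98 without control replicate 2. KDM4C had one of 1.26 without control replicate 1 and of 1.10 without embelin replicate 1. The cause of these differences between settings was not tested.

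The groups share replicate numbers, but nothing in the labels says that a number marks a shared culture or day, and the correlation of the deviations from the group means across genes was 0.18. With the replicate number as a block 0 of the 9 genes and 0 of all genes were called after adjustment, against 1757 genes past 2-fold with an unadjusted p under 0.05, among them 2 of the 9. The 2 arrays per group limit these fits, and KDM6B and the other probe of KDM4C are limited by signal near background.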
